A study of Mus musculus with 6 samples.

Results

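The genes described here code for 10 amino acid transporters of the plasma membrane, namely Slc3a2, Slc7a5, Slc7a6, Slc7a11, Slc7a1, Slc1a4, Slc1a5, Slc38a1, Slc38a2 and Slc43a1. They were chosen by gene name and are 10 of the 12925 genes tested. RNA was measured by poly-A sequencing in Th9 cultures, in which naive CD4+ T cells, taken from C57BL/6 mice 8 to 10 weeks old, were driven for 48 h toward the IL-9-producing helper fate. The labels give the spleen as source, and the isolation methods name lymph nodes as well. Every culture received plate-bound anti-CD3, soluble anti-CD28, IL-4, TGF-β and a blocking antibody to IFN-γ, in RPMI with added Glutamax and non-essential amino acids. The 3 WT samples came from Cul5 fl/fl littermates that carried no CD4-Cre, and the 3 Cul5 cKO samples from Cul5 fl/fl CD4-Cre mice. CD4-Cre acts in all T cells from the thymus onward, so deletion of Cul5, a subunit of ubiquitin ligases, preceded the culture. The study's text describes the samples as examined in 1 experiment, so the p-values below measure the spread between these cultures alone.

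A resting T cell takes up few amino acids, and antigen receptor and CD28 signals raise the carriers that import leucine, glutamine, arginine and cystine for protein synthesis. Several of these carriers are pairs: SLC3A2, also known as CD98, is the heavy chain that brings light chains such as LAT1 (Slc7a5), y+LAT2 (Slc7a6) and xCT (Slc7a11) to the cell surface. Others work without it, among them the cationic carrier CAT1 (Slc7a1), the neutral exchangers ASCT1 (Slc1a4) and ASCT2 (Slc1a5), the sodium-coupled carriers SNAT1 (Slc38a1) and SNAT2 (Slc38a2), and the facilitative carrier LAT3 (Slc43a1). The comparison asks how mRNA for this set stood with and without Cul5 in the same culture.

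Libraries held between 23111689 and 23454552 estimated counts, except WT replicate 3, which held 3944803. Levels are given as CPM, counts scaled to the TMM-adjusted size of the library, and 3 counts, used as a floor, equalled 0.76 CPM in WT replicate 3 and 0.128 to 0.13 CPM in the others. Cul5 itself stood at 64.4 to 69.3 CPM in WT samples and 10.6 to 14.2 CPM in Cul5 cKO samples, with a log2 fold difference of -2.39 (SE 0.115) and a Benjamini-Hochberg adjusted p of 0.000992 in edgeR's quasi-likelihood test. The 5 markers of CD4 T cells had summed levels of 1060, 1150 and 1160 CPM in the WT samples, and the Cul5 cKO samples held 934, 1020 and 994 CPM, all of them less. Within that list Cd28, the costimulatory receptor engaged in these cultures, was at 88.2 to 125.0 CPM in WT and 45.0 to 56.3 CPM without Cul5 (log2 fold difference -1.17, SE 0.15, adjusted p = 0.0205 in the same edgeR test). Cd3e and Cd3g were also lower in every Cul5 cKO sample but did not pass (adjusted p = 0.0987 and 0.112). Cd28, Cd3e and Cd3g were named after their values were seen. Cd4 overlapped between genotypes, at 452.1 to 469.5 CPM in WT and 440.1 to 459 CPM without Cul5. So did Trac, at 231.3 to 315.8 and 210.2 to 303 CPM. The part of Cd28 in the levels of the transporters was not tested. Markers of B cells summed to 15.1 to 19.2 CPM in WT samples, and Cul5 cKO replicates 1, 2 and 3 held 6.47, 9.86 and 48 CPM of them. Those of myeloid cells reached at most 12.5 CPM, in Cul5 cKO replicate 2. Markers of NK cells, CD8 T cells and erythroid cells summed to at most 13.1, 11.6 and 1.45 CPM, and the NK marker Ncr1 was at 0 in all libraries. The labels do not say that a replicate number links a WT culture to a Cul5 cKO culture.

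None of the 10 transporters passed the test between genotypes at an adjusted p under 0.05 (0 of 10 in edgeR's quasi-likelihood test, adjusted by Benjamini-Hochberg over all genes), where 1.03% of all genes tested did. At an unadjusted p under 0.05 there were 2 of 10, Slc3a2 and Slc7a6, beside 21.3% of all genes, and these were also the 2 in which the genotypes did not overlap. Of all genes, 14.0% had every Cul5 cKO sample above every WT sample and 13.5% had the opposite. No transporter lay wholly lower. Of the other tools, DESeq2 called 1 member, Slc3a2, and limma called 0 in each of its 3 settings. The estimates were higher in Cul5 cKO cells for 8 members and lower for 2, and their median on the log2 scale was 0.21, beside -0.007 over all genes. In bulk RNA, fewer cells with a transcript and less of it per cell cannot be told apart.

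**Figure D1:**
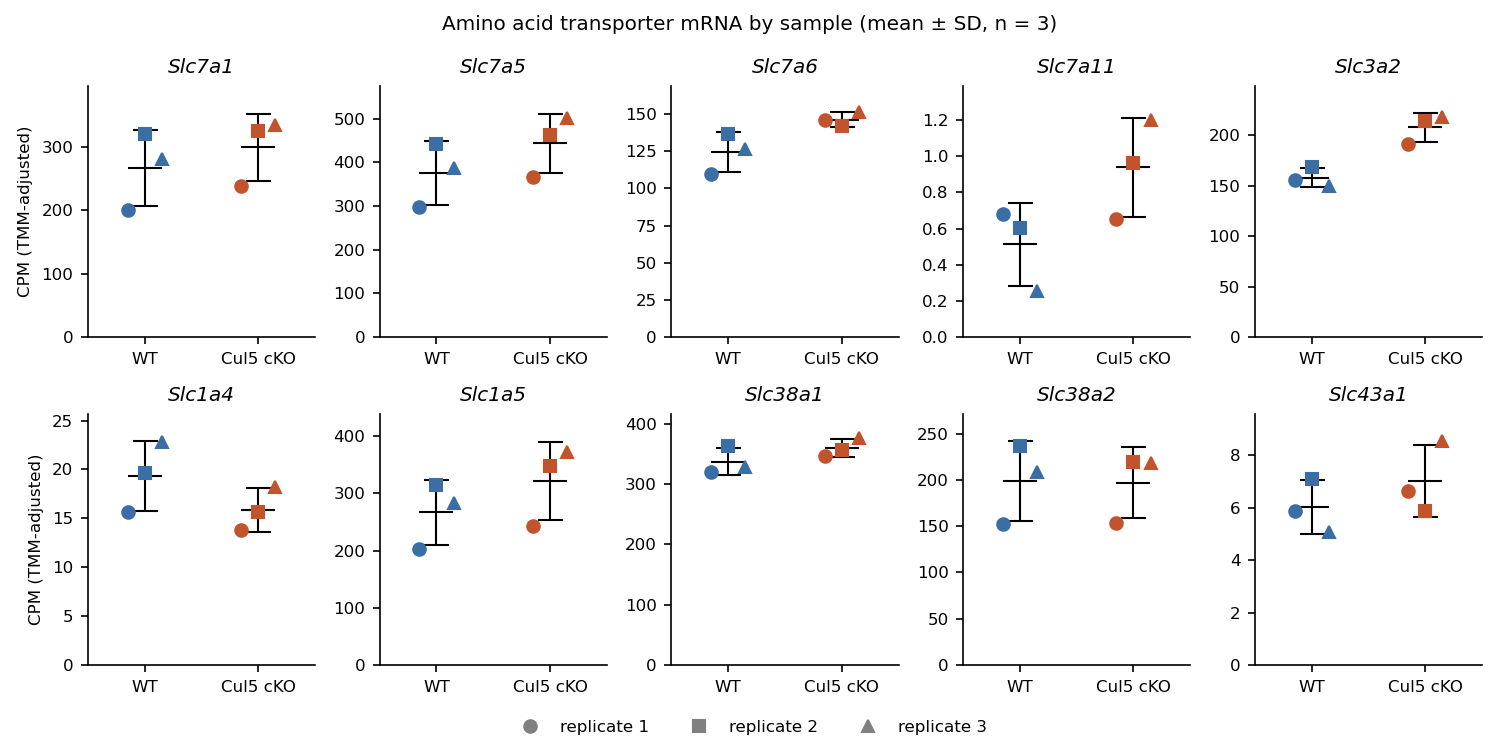
Level of each transporter by sample, in CPM with TMM-adjusted library sizes (vertical axes, each from 0, scaled per gene), for WT (blue) and Cul5 cKO (orange). Symbols mark replicate numbers and black bars the mean ± SD of 3 samples, and only Slc3a2 and Slc7a6 have the 3 orange points all above the 3 blue ones.

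Slc3a2, the shared heavy chain, had the smallest p of the set. Its level was 156.0, 168.5 and 149.6 CPM in WT replicates 1, 2 and 3 and 191.2, 213.9 and 218.8 CPM in the Cul5 cKO replicates. The lowest Cul5 cKO sample lay above the highest WT sample, and the means were 158.0 ± 9.63 and 208.0 ± 14.7 CPM (SD, n = 3). The estimated fold was 1.31, a log2 fold difference of 0.39 (SE 0.0782, 95% interval 0.21 to 0.58), with an unadjusted p of 0.00127 and an adjusted p of 0.0694 in edgeR's quasi-likelihood test. An exact two-sided permutation test gave p = 0.1, the smallest that 3 samples against 3 allow. DESeq2 gave a log2 fold difference of 0.41 and an adjusted p of 0.00172, while limma on the authors' gene-level log2 CPM gave 0.50 and 0.201. In that deposited table the WT samples stood at 7.07, 7.24 and 6.73 and the Cul5 cKO samples at 7.39, 7.60 and 7.56 on the log2 scale, again without overlap.

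The gene lies at chr19:8706882-8723369 on the minus strand of GRCm38 (ENSMUSG00000010095), and its main transcript, Slc3a2-201, took 65.2% ± 5.59 of the counts in WT and 70.1% ± 2.38 in Cul5 cKO samples. Another transcript, Slc3a2-202, held 11.5% ± 2.56 and 11.4% ± 1.08 and contains a stretch of at least 150 bases that is 95% or more identical to transcripts of 109 other genes. Counted without that transcript, Slc3a2 had 135, 147 and 137 CPM in WT samples and 171, 191 and 191 CPM in Cul5 cKO samples. The genotypes stayed apart, with a log2 fold difference of 0.40 (SE 0.0726, adjusted p = 0.059 in edgeR's quasi-likelihood test).

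Slc7a5, the light chain of the leucine carrier LAT1, reached 297.9, 442.4 and 387.2 CPM in WT samples and 367.4, 461.9 and 500.9 CPM in Cul5 cKO samples. Replicate 1 was the lowest of each genotype, and the groups overlapped. The means were 375.8 ± 72.9 and 443.4 ± 68.6 CPM (SD, n = 3), and the log2 fold difference of 0.24 (SE 0.164, 95% interval -0.14 to 0.62) had an adjusted p of 0.442 in edgeR's quasi-likelihood test. It dropped to 0.10 when WT replicate 1 was left out and to 0.15 when Cul5 cKO replicate 3 was, and stood at 0.38 lacking WT replicate 2 and 0.36 lacking Cul5 cKO replicate 1. The interval includes both 0 and the estimate for Slc3a2. The gene (chr8:121881150-121907694, minus strand, ENSMUSG00000040010) shares its locus with Gm20388 on the other strand, which held 777.4 counts over all samples against 48997.9 for Slc7a5. The counting is not stated to use strand.

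Slc7a6 codes for y+LAT2, the light chain that exchanges cationic for neutral amino acids. It stood at 110.0, 136.9 and 126.3 CPM in WT samples and at 145.9, 141.8 and 151.5 CPM in Cul5 cKO samples. All Cul5 cKO samples were above all WT samples, though the lowest of them exceeded WT replicate 2 by a small margin. The means were 124.4 ± 13.5 and 146.4 ± 4.85 CPM (SD, n = 3). The log2 fold difference was 0.24 (SE 0.0894, 95% interval 0.03 to 0.44), and its adjusted p was 0.194 (0.0321 before adjustment) in edgeR's quasi-likelihood test. The separation depended on the table: in the authors' log2 CPM, WT replicate 2 at 6.36 lay among the Cul5 cKO values of 6.36, 6.27 and 6.30.

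Slc7a11, the cystine carrier light chain, was close to the limit of these libraries and is absent from the gene-level table, so its transcripts were summed. It had 16, 14 and 1 counts in WT and 15, 22 and 27 in Cul5 cKO samples, equal to 0.683, 0.606 and 0.253 CPM and to 0.651, 0.964 and 1.20 CPM. WT replicate 3 was under its floor of 3 counts, and replicate 1 had about the same level in both genotypes. The log2 fold difference of 0.68 (SE 0.397, 95% interval -0.25 to 1.61, adjusted p = 0.371 in edgeR's quasi-likelihood test) thus rests on few reads. Its protein-coding transcript Slc7a11-201 shares a near-identical stretch with 8 other genes, the abundant tubulin genes Tuba1b, Tuba1a and Tuba1c among them. Without the transcripts that share such a stretch, 10, 6 and 1 counts remained in WT and 10, 11 and 8 in Cul5 cKO samples, too few for the expression filter.

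**Figure D2:**
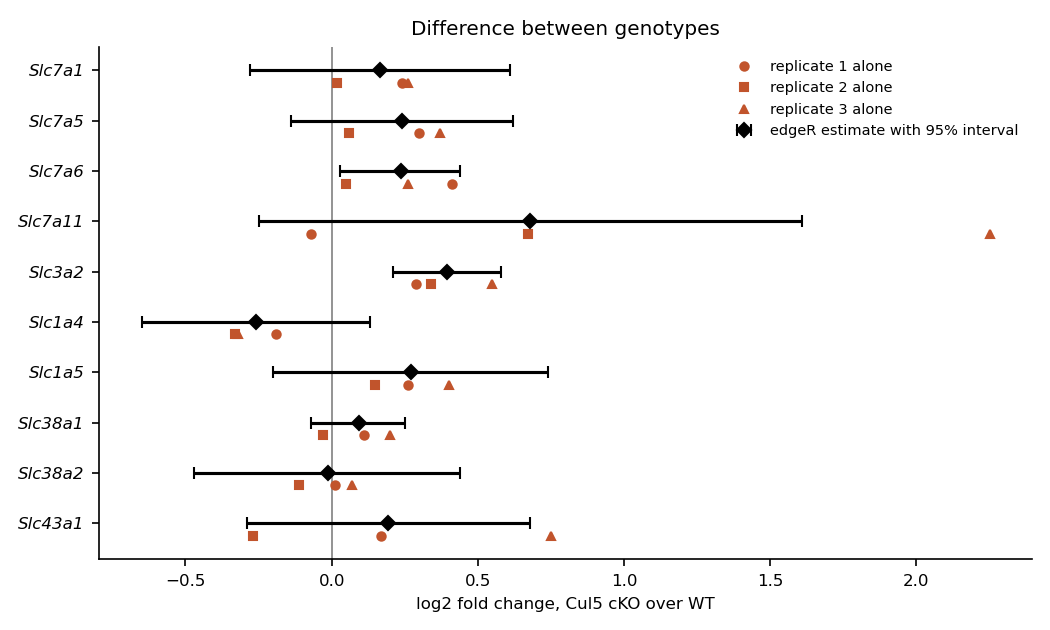
Log2 fold change of each transporter, Cul5 cKO over WT (horizontal axis). Black diamonds and bars are the edgeR estimate with its 95% interval from 3 samples against 3, and orange symbols are log2 ratios of CPM between samples with the same replicate number, which ran from -0.07 to 2.25 for Slc7a11 and from 0.29 to 0.55 for Slc3a2.

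The plot of log2 fold differences shows intervals clear of 0 for Slc3a2 and Slc7a6 alone. These intervals are per gene and are not adjusted for the number of genes. For the pairing of light and heavy chain, TPM, which is scaled to transcript length, gives a ratio within each sample. The TPM of Slc7a5 divided by that of Slc3a2 was 0.845, 1.16 and 1.09 in WT and 0.872, 0.973 and 0.991 in Cul5 cKO samples. The groups overlapped, at 1.03 ± 0.166 and 0.945 ± 0.0639 (SD, n = 3, exact two-sided permutation p = 0.5). The ratio of Slc7a6 to Slc3a2 was 0.609 ± 0.0622 and 0.585 ± 0.0597 (exact permutation p = 0.7), and that of Slc7a11 was 0.00112 ± 0.000421 and 0.00156 ± 0.000261 (exact permutation p = 0.3). A difference between genotypes in these ratios was not detectable with 3 samples each. They use all transcripts of a gene, and Slc7a6-203, annotated for nonsense-mediated decay, took 33.2% ± 9.99 of the Slc7a6 counts in WT samples. From protein-coding transcripts alone Slc7a6 overlapped between genotypes, at 53.4, 76.16 and 53.05 TPM in WT and 85.47, 77.82 and 74.39 TPM in Cul5 cKO samples.

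Among carriers that need no heavy chain, Slc1a5, the glutamine exchanger ASCT2, stood at 203.3, 314.5 and 282.4 CPM in WT samples and 243.2, 348.7 and 372.0 CPM in Cul5 cKO samples. Each Cul5 cKO sample was above the WT sample of the same number, but the groups overlapped through Cul5 cKO replicate 1. Slc1a5 was lowest in replicate 1 of both genotypes. Its log2 fold difference was 0.27 (SE 0.201, 95% interval -0.20 to 0.74, adjusted p = 0.479 in edgeR's quasi-likelihood test), from 266.8 ± 57.2 to 321.3 ± 68.7 CPM. It was 0.11 without WT replicate 1, 0.15 lacking Cul5 cKO replicate 3, 0.41 lacking WT replicate 2, 0.44 lacking Cul5 cKO replicate 1, 0.11 on the authors' table, 0.13 on counts scaled from TPM and 0.08 with limma on log2(TPM + 1). Slc1a4, the related exchanger ASCT1 for serine, alanine and other small neutral amino acids, was the member with the lowest estimate. It had 15.67, 19.60 and 22.77 CPM in WT samples and 13.77, 15.64 and 18.23 CPM in Cul5 cKO samples. The order was the reverse of that for Slc1a5, with every Cul5 cKO sample under the WT sample of its number and the groups overlapping. The log2 fold difference of -0.26 (SE 0.166, 95% interval -0.65 to 0.13) had an adjusted p of 0.412 in the same edgeR test.

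Slc7a1, the main importer of arginine and lysine, was at 201.3, 319.8 and 280.4 CPM in WT samples and at 238.4, 325.0 and 335.2 CPM in Cul5 cKO samples. Replicate 1 was again the lowest of each genotype, and the log2 fold difference was 0.17 (SE 0.190, 95% interval -0.28 to 0.61, adjusted p = 0.654 in edgeR's quasi-likelihood test). Left out in turn, WT replicate 1 took this estimate to -0.003.

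Of the sodium-coupled carriers, Slc38a1 was the steadiest, at 320.3, 362.6 and 327.4 CPM in WT samples and 346.6, 355.6 and 375.5 CPM in Cul5 cKO samples. The groups overlapped through WT replicate 2, and the log2 fold difference of 0.09 (SE 0.069, 95% interval -0.07 to 0.25, adjusted p = 0.48 in edgeR's quasi-likelihood test) had the narrowest interval of the set. Slc38a2, known for being raised when amino acids run short, stood at 152.1, 236.9 and 208.3 CPM in WT samples and 152.9, 219.8 and 218.5 CPM in Cul5 cKO samples. The means nearly coincided, at 199.1 ± 43.1 and 197.1 ± 38.3 CPM (SD, n = 3). The log2 fold difference was -0.01 (SE 0.194, 95% interval -0.47 to 0.44, adjusted p = 0.98 in edgeR's quasi-likelihood test). That interval leaves room for a difference in either direction, and the sign of the estimate changed with the tool and the filter used. Slc43a1, a carrier of leucine and other large neutral amino acids, was low, at 5.892, 7.095 and 5.061 CPM in WT samples and 6.645, 5.872 and 8.537 CPM in Cul5 cKO samples. Its samples overlapped, and the log2 fold difference was 0.19 (SE 0.206, 95% interval -0.29 to 0.68, adjusted p = 0.629 in edgeR's quasi-likelihood test). With the other libraries thinned to the depth of WT replicate 3 it was -0.47.

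Replicate number went with the level of several members as much as genotype did. The log2 level of replicate 1 minus the mean of replicates 2 and 3 was -0.55 in WT and -0.57 in Cul5 cKO samples for Slc1a5, -0.57 and -0.47 for Slc7a1, and -0.55 and -0.52 for Slc38a2. For Slc7a5 it was -0.47 and -0.39, and for Slc1a4 -0.43 and -0.29. Thus replicate 1 was lower by over 0.25 in both genotypes for 5 of 10 members, as it was for 9.32% of all genes tested, and Slc3a2 was not among them, at -0.02 and -0.18. Replicates 2 and 3 on their own gave 8.83% of 13055 genes at an adjusted p under 0.05 and 1 member, Slc3a2, with a log2 fold difference of 0.44 and an adjusted p of 0.0293 in edgeR's quasi-likelihood test. There Slc1a5 had 0.27 (adjusted p = 0.073), Slc7a5 0.21 (adjusted p = 0.147) and Slc7a6 0.15 (adjusted p = 0.192). These 4 libraries include WT replicate 3, the shallow one. Cul5 cKO replicate 3 held the highest value of 8 of the 10 members, against 19.8% of all genes, and WT replicate 1 the lowest of 6, against 19.1%. Cul5 cKO replicate 3 was also the library with 48 CPM of B cell markers. Without it Slc3a2 had a log2 fold difference of 0.36 and an adjusted p of 0.253 in edgeR's quasi-likelihood test, where 3 genes were called in all. Without WT replicate 3 instead, the values were 0.36 and 0.251, with 2 genes called in all. The part of the B cell markers in the members' levels was not tested.

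**Figure D3:**
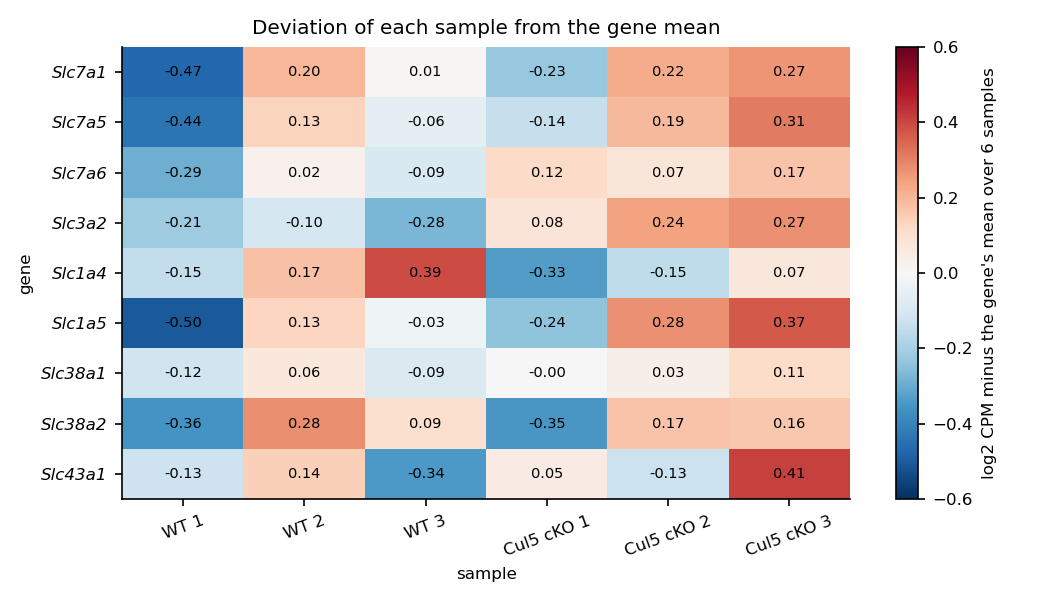
Deviation of each sample's log2 CPM from the gene's mean over 6 samples (colour and printed value, log2 scale), with genes in rows and samples in columns. WT replicate 1 and Cul5 cKO replicate 1 are low together for Slc7a1, Slc7a5, Slc1a5 and Slc38a2, whereas Slc3a2 is below its mean in all WT and above it in all Cul5 cKO samples, and Slc7a11 is left out for its low counts.

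Across the 6 samples, log2 CPM of Slc7a5 had a Pearson correlation of 0.99 with Slc1a5 and 0.98 with Slc7a1, and Slc7a1 one of 0.93 with Slc38a2. Slc3a2 followed these less closely, at 0.69 with Slc7a5, 0.65 with Slc1a5 and 0.25 with Slc38a2, and it was nearer to Slc7a6 at 0.81. Slc1a4 was apart, at -0.45 with Slc3a2. These correlations describe 6 points that share library and depth, and both genotype and replicate enter them. Of the 8694 genes whose mean reached 10 CPM, the 5 most like Slc7a5 were Slc19a1, Stat6, Ppp2r1b, Qrich1 and Sdad1, with correlations between 0.9959 and 0.9984. The 5 most like Slc3a2 were Prps2, Gusb, Psmd3, Wdr18 and Usp39, between 0.9963 and 0.9984, and the lists shared no name.

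Per length, the transporters spanned a wide range in WT cells. Slc1a5 was highest at 215.7 ± 47.3 TPM, followed by Slc7a5 at 159.5 ± 33.9 TPM and Slc3a2 at 153.6 ± 10.2 TPM (SD, n = 3). Sample values of neighbours in this order overlapped across libraries. Within each of the 3 WT libraries, however, Slc1a5 was above both others, whereas Slc7a5 was above Slc3a2 in 2 of 3, and each stood above at least 92.8% of the genes tested. The rank of Slc1a5 counts every annotated transcript, short ones not annotated as protein-coding included. Slc7a6 at 93.9 ± 14.7 and Slc38a1 at 91.2 ± 9.90 TPM came next and overlapped each other but not Slc3a2. Slc38a2 at 59.7 ± 14.3 and Slc7a1 at 53.4 ± 13.0 TPM formed a further overlapping pair, with Slc38a2 the higher in all 3 WT libraries and in 1 of 3 Cul5 cKO libraries. Well below, and each apart from its neighbours, were Slc1a4 at 7.09 ± 1.20, Slc43a1 at 3.97 ± 0.696 and Slc7a11 at 0.171 ± 0.0603 TPM. The 10 together summed to 688.9, 954.0 and 872.0 TPM in WT and to 818.4, 985.6 and 1021 TPM in Cul5 cKO samples, overlapping and lowest in replicate 1 of each genotype.

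**Figure D4:**
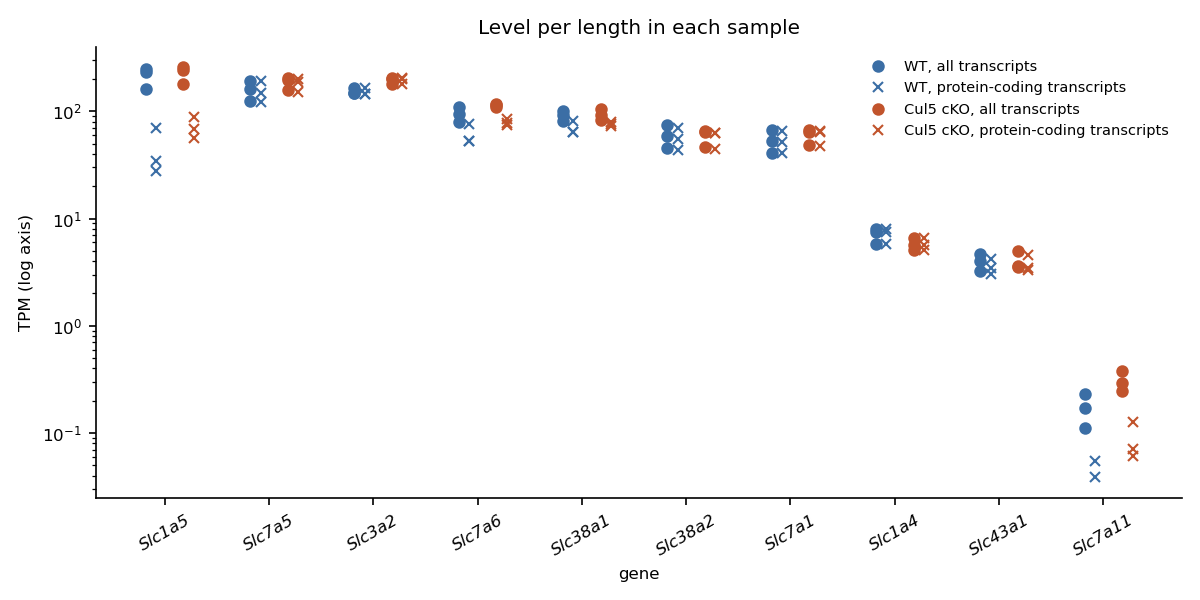
TPM of each transporter by sample on a log axis, ordered by the WT mean, with circles for all transcripts and crosses for protein-coding transcripts of WT (blue) and Cul5 cKO (orange) samples. Crosses fall far below circles for Slc1a5, 43.9 ± 23.0 against 215.7 ± 47.3 TPM in WT, and a WT library with 0 TPM from protein-coding transcripts of Slc7a11 has no cross.

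How reads were divided between transcripts changed this order for Slc1a5. Its transcript Slc1a5-202, annotated as retaining an intron, took 59.6% ± 6.48 of the gene's counts in WT and 51.3% ± 4.38 in Cul5 cKO samples, and the protein-coding Slc1a5-201 took 30.3% ± 10.5 and 42.1% ± 4.39. Slc1a5-204, a transcript of 613 bases not annotated as protein-coding, held 5.69%, 3.19% and 10.1% of counts in WT replicates 1, 2 and 3. It held 24.11%, 15.04% and 35.44% of the gene's TPM there. From protein-coding transcripts alone Slc1a5 stood at 43.9 ± 23.0 TPM in WT and 71.3 ± 16.4 TPM in Cul5 cKO samples, below Slc7a5 at 153.8 ± 34.2 and Slc3a2 at 152.1 ± 10.3 TPM in WT. These Slc1a5 values overlapped between genotypes, at 34.1, 70.2 and 27.5 TPM in WT and 56.2, 68.9 and 88.8 TPM in Cul5 cKO samples. The lowest was in WT replicate 3, the shallow library. By contrast Slc7a1-201 and Slc7a5-201 each took 99.5% of their gene's counts in WT. Slc1a4 had its counts in either of a pair of transcripts of nearly equal length, with 74.7%, 97.2% and 0% in Slc1a4-202 in WT replicates 1, 2 and 3. Single-end reads of 50 bases do not separate such transcripts well, and that gene's total is the safer value.

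The share of counts in transcripts annotated with a retained intron was lower on average in Cul5 cKO cells for all 9 members that have such transcripts with counts, as it was for 64.9% of 7029 genes. For some of the 9 it rests on few counts per library, 3.9 to 19.7 for Slc3a2-209, 6.4 to 24.4 for Slc7a1-205 and 10.9 to 47.2 for Slc7a5-202. The share of Slc7a11 in WT replicate 3 comes from 1 count. For Slc7a6 the share was 11.86%, 10.09% and 10.75% in WT and 5.883%, 8.07% and 7.714% in Cul5 cKO samples. For Slc38a1 it was 6.339%, 6.417% and 8.586% in WT and 5.138%, 6.294% and 5.734% in Cul5 cKO samples. In these 2 of 9 every Cul5 cKO sample was below every WT sample, beside 9.69% of all genes, and the exact two-sided permutation p was 0.1 for each, the smallest possible. Shares of Slc1a5 overlapped, at 62.28%, 56.06% and 69.47% in WT and 52.4%, 59.14% and 49.87% in Cul5 cKO samples (exact permutation p = 0.2). The share over all genes was 3.839%, 4.172% and 5.333% in WT and 3.722%, 3.998% and 3.742% in Cul5 cKO samples. WT replicate 3, the shallow library, was the highest over all genes and for 8 of the 9 members, Slc7a6 being the exception, and it was the highest for 43.4% of the 7029 genes. Without it the mean share was lower in Cul5 cKO cells for 8 of 9 members, Slc7a5 no longer among them, and for 59.9% of genes. Slc7a6 and Slc38a1 then lay wholly lower, as did 14.4% of all genes, a larger share than the 9.69% with every library. The part of the depth of WT replicate 3 in these shares was not tested.

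Other genes that handle amino acids gave a setting for these values. Of 31 further amino acid carriers, 18 passed the expression filter and 0 of those were called at an adjusted p under 0.05 in edgeR's quasi-likelihood test, beside 1.03% of all genes. At an unadjusted p under 0.05 there were 6 of 18, 2 higher and 4 lower, beside 21.3% of all genes, and DESeq2 called 1 and limma 0. Estimates were split between 9 higher and 9 lower, with a median log2 fold difference of -0.04. The smallest p belonged to Slc38a9, a lysosomal arginine sensor, at 24.76 ± 1.61 CPM in WT samples and 15.91 ± 3.37 CPM in Cul5 cKO samples, with a log2 fold difference of -0.63 (SE 0.162, adjusted p = 0.109). Next were Slc7a2, an arginine carrier related to Slc7a1, at 1.44 ± 0.365 and 3.12 ± 0.647 CPM (1.08, SE 0.296, adjusted p = 0.116), and the glutamate carrier Slc1a2 at 5.25 ± 0.307 and 2.91 ± 0.926 CPM (-0.84, SE 0.262, adjusted p = 0.142). In each of these 3, picked for their small p, the groups did not overlap. Of the 18, 2 lay wholly higher and 5 wholly lower in Cul5 cKO samples, beside 14.0% and 13.5% of all genes. The highest estimate, 2.20 for the light chain Slc7a8, named after its values were seen, came from 9.378 CPM in Cul5 cKO replicate 2 against 0.3909 to 1.690 CPM in the other libraries. That library also held the 12.5 CPM of myeloid markers, whose part in the value was not tested.

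The 17 genes of the response to amino acid shortage, which the factor ATF4 directs and which is known to raise several of these transporters, were all tested. Estimates were higher in Cul5 cKO cells for 16 and lower for 1, Stc2, with a median log2 fold difference of 0.28. Of the 17, 7 had an unadjusted p under 0.05, all higher, beside 21.3% of all 12925 genes in either direction (1415 higher and 1338 lower). Beside 1.03% of all genes, 1 of the 17 passed the adjusted threshold. This was Sesn2, a leucine sensor that restrains mTORC1, at 15.88, 12.89 and 15.44 CPM in WT samples and 25.19, 24.37 and 26.99 CPM in Cul5 cKO samples. The groups were far apart relative to their spread, with a log2 fold difference of 0.80 (SE 0.112, adjusted p = 0.0255 in edgeR's quasi-likelihood test). With 1 library left out, no gene of the list passed, except when that library was WT replicate 1, where 1 did. Atf4 mRNA, named after its values were seen, was at 248.8 ± 21.6 and 327.5 ± 53.3 CPM (0.40, SE 0.126, adjusted p = 0.147).

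The 20 genes of lysosomal amino acid sensing upstream of mTORC1, the Rag GTPases, Ragulator, sestrins and GATOR1 among them, centred on 0, with 11 higher, 9 lower and a median log2 fold difference of 0.02. At an unadjusted p under 0.05 there were 6 of 20, 3 higher and 3 lower, beside 21.3% of all genes. Sesn2, which the list shares with the ATF4 genes, was the 1 of 20 that passed the adjusted threshold, beside 1.03% of all genes. The other sestrins had estimates below 0 that did not pass. Sesn1, named after its values were seen, was at 27.61 ± 2.10 CPM in WT samples and 19.18 ± 0.331 CPM in Cul5 cKO samples, with a log2 fold difference of -0.52 (SE 0.0901) and an adjusted p of 0.0512 in edgeR's quasi-likelihood test. Sesn3, likewise named afterwards, was at 186.8 ± 37.2 and 127.0 ± 14.7 CPM (-0.55, SE 0.157, adjusted p = 0.122).

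**Figure D5:**
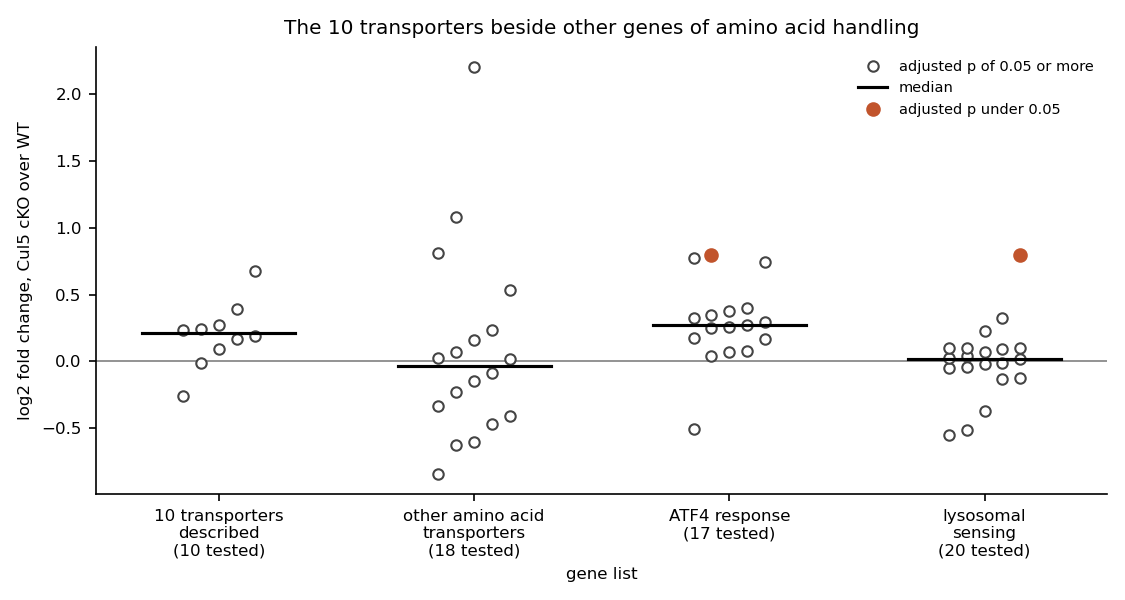
Log2 fold change, Cul5 cKO over WT (vertical axis), of the genes tested in 4 lists of amino acid handling, where each circle is a gene, a black bar the list's median and an orange circle a gene with an adjusted p under 0.05. Medians were 0.21 for the 10 transporters, -0.04 for other carriers, 0.28 for the ATF4 list and 0.02 for lysosomal sensing, and the orange point in the last pair of lists is the same gene, Sesn2.

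The members' promoters were read for letters bound by factors that bear on this culture, ATF4 for amino acid shortage, STAT factors for the IL-4 receptor and MYC/MAX for growth. RefSeq on GRCm38.p6 gave 9 promoters of 7 members, each with 250 bases before the start and 50 after it, and 32817 promoters in all. Promoters of Slc7a5, Slc1a5 and Slc38a1 were not among them and were not read. On either strand, TGATGNAA (ATF4) was present in 2 of the 9, beside 3.97% of all, TTCNNNGAA (STAT) in 2, beside 8.29%, and CACGTG (MYC/MAX) in 1, beside 7.15%. The stretches are shown 5′ to 3′ on the strand of the gene, with the matched letters in capitals.
Slc7a11, ATF4, chr3:50443633-50443699, minus strand: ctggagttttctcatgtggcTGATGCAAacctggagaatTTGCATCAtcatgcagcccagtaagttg
Slc1a4, ATF4, chr11:20332690-20332737, minus strand: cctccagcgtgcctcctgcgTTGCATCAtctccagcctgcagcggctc
Slc7a11, STAT, chr3:50443768-50443816, minus strand: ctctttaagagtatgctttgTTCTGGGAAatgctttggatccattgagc
Slc7a1, STAT, chr5:148392933-148392981, minus strand: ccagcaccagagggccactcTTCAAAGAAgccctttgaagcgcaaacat
Slc43a1, MYC/MAX, chr2:84840239-84840284, plus strand: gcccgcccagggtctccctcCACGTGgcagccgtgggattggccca

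Slc7a11 carried the ATF4 letters at 2 places, at -66 and -47 from the start on opposite strands, and Slc1a4 carried them once, at -4. Neither of these members passed the test, and their estimates lay on opposite sides of 0. The stretches of Slc7a1 and Slc43a1 lie inside the annotated genes (chr5:148327410-148399904 and chr2:84838850-84863594), before internal starts. Slc3a2, with the smallest p of the set, held none of these letters in the windows read. A match is a description of the letters and not of binding.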

How the data were processed

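Poly-A RNA of 3 WT and 3 Cul5 cKO cultures was sequenced by the study in single-end reads of 50 bases. The authors' kallisto 0.46.2 files hold, for each of 119414 transcripts, deposited estimated counts (not normalized) and TPM. Their gene-level table holds deposited log2 CPM after TMM in edgeR 3.34.0 for 11242 rows, beside columns of log2 fold changes and p-values from the authors' own comparison, which were not used. It lists 9 of the 10 members.

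Here estimated counts were summed per gene through GENCODE vM21 (GRCm38), which matched 116640 transcripts (97.7%), and rounded. Unmatched transcripts held 0.958% to 1.038% of counts. In R 4.3.3, edgeR 4.0.16 with its default expression filter, TMM and the quasi-likelihood test compared genotypes over 12925 genes, with Benjamini-Hochberg adjustment and calls at an adjusted p under 0.05. The fit was tested on simulated data. Depth ran from 3944803 to 23454552 counts per library. The floor covers counting error only. The exact permutation tests were two-sided.

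The named genes were the 10 members, Cul5, genes of the 3 other lists past the threshold or else the 3 with the smallest p, and the 5 most like Slc7a5 and Slc3a2. The members, lists and tests were chosen with earlier results of these data known. Alternatives were DESeq2 1.42.0, scaling by library size, a minimum of 10 counts per sample, no filter, counts scaled from TPM, limma 3.58.1 on the authors' log2 CPM, log2(TPM + 1) and log2(TPM + 0.1), unadjusted p, the replicate number as a block, each library left out, replicates 2 and 3 alone and 5 libraries thinned to the depth of WT replicate 3. Leaving out transcripts that blastn 2.17.0 matched to other genes over 150 bases at 95% identity, and retained-intron shares without WT replicate 3, were added after seeing the data. Python 3.11.15 drew the figures and read the promoters.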

Additional observations from a re-analysis of the deposited data

How the results depend on the processing

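WT replicate 3 held the fewest counts, which limits what can be said of Slc7a11, Slc43a1 and Slc1a4. No member was called with any 1 library left out (0 to 0), whereas 1 was called by DESeq2, 1 with replicates 2 and 3 alone and 2 at an unadjusted p under 0.05. Over all genes, 133 were called, against 757 by DESeq2, 228 without a filter, 62 on counts scaled from TPM, 42, 27 and 30 by limma on the authors' log2 CPM, log2(TPM + 1) and log2(TPM + 0.1), 2753 at an unadjusted p under 0.05, 1153 with replicates 2 and 3 alone and 2 to 316 with 1 library left out. Other carriers called numbered 0, against 1 by DESeq2, 6 unadjusted, 3 in replicates 2 and 3 and 0 to 1 with 1 library left out. The ATF4 list had 1 call, against 4 by DESeq2, 0 in each limma setting, 7 unadjusted, 4 in replicates 2 and 3 and 0 to 1 with 1 library left out. Lysosomal sensing had 1, against 3 by DESeq2, 2 by library size alone, with at least 10 counts, with no filter and when thinned, 0 in each limma setting, 6 unadjusted, 4 in replicates 2 and 3 and 0 to 3 with 1 library left out.

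Slc38a2 turned from -0.01 to 0.002 by DESeq2, 0.007 without a filter, 0.042 on counts scaled from TPM and 0.038 on the authors' table, and ran from -0.177 to 0.144 as libraries were left out in turn. Slc7a1 ran from -0.003 (without WT replicate 1) to 0.325 in the same way, and Slc43a1 to -0.47 when libraries were thinned. The other members kept their direction in every setting that gave them a value, but not their size. With 1 library left out Slc1a5 ran from 0.107 to 0.439 and Slc7a5 from 0.097 to 0.38, and Slc1a5 fell to 0.079 and Slc38a1 to 0.024 on log2(TPM + 1). Slc7a11 gave none in thinned libraries, with at least 10 counts per sample, in the authors' table or without shared transcripts. The causes were not tested.

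With the replicate block, 848 genes were called in all, 1 member (Slc3a2, 0.39, adjusted p = 0.03), 1 other carrier, 5 ATF4 genes and 2 of lysosomal sensing. Same-numbered samples shared deviations from their group means with correlations of 0.37, 0.206 and 0.025, so not every pair exceeded 0.1. WT replicate 1 correlated best with its own number. WT replicate 2 had nearly equal values with Cul5 cKO replicates 2 (0.206) and 3 (0.201), and WT replicate 3 correlated best with Cul5 cKO replicate 2 (0.091).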
